A study of Arabidopsis thaliana with 4 samples.

Results

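The 10 genes described here encode structural proteins of the plant cell wall: 8 classical extensins (*HRGP1*, *EXT13*, AT3G54580, AT4G08410, AT5G06630, AT3G28550, AT1G26240 and AT1G26250), the leucine-rich repeat extensin *LRX2* and the proline-rich protein *PRP3*. They are 10 of 13771 genes named on the array. The 22746 tested probe sets also include 8245 left unnamed and 503 assigned to several genes. The 10 genes were chosen by name together with their change after auxin on these same arrays. Their changes are therefore given as a description without a test. Where one of them is said to pass the study's rule, that too is only a description. The RNA was that of entire *Arabidopsis thaliana* seedlings (wild type, Col-0) grown in light to an age of 5 days, which carried no transgene or mutation according to the labels. Mock seedlings were kept under water for 2 h, and the treated ones for an equal time under water holding the auxin indole-3-acetic acid (IAA) at 10 µM. Each group had 2 Affymetrix arrays, described by the study as independent biological replicates.

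Extensins are rod-like glycoproteins of the cell wall, in which serine followed by a run of prolines recurs along the chain. The prolines are hydroxylated and decorated with arabinose, and tyrosines between the repeats can be joined by peroxidases, which ties the molecules into a network. Leucine-rich repeat extensins join a leucine-rich repeat domain, which binds small signaling peptides, to an extensin-like tail. Root hairs, the tubular outgrowths of root epidermal cells, grow at the tip and need such proteins in their wall: *LRX2* acts there together with its close relative *LRX1*, and the *PRP3* promoter is active in hair-forming cells. *HRGP1* and *EXT13* are named as a hydroxyproline-rich glycoprotein and an extensin in the RefSeq gene table. For the 6 genes known here by locus only, that table gives no name, and their place among the extensins rests on the lists used for this work.

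Values are RMA expression intensities, which combine the probes of a probe set into 1 number and are given on a linear scale. Array medians ran from 62.2 to 63.5. Across probe sets, which are not replicates, the mock arrays correlated at r = 0.997, the IAA arrays at r = 0.994 and arrays of different groups at no more than 0.988 (log2 values). A value at or below 37.6, the highest reading of 27 control probe sets for *Bacillus* genes, is called near background here. A single control set that limit, with readings from 31.1 to 37.6, and no other read above 19.2. Where 1 group lay near background, the fold is given as a lower bound, the brighter group's mean of log2 values set against the log2 of 37.6. Levels are compared between treatments for 1 probe set at a time, never between genes, since probe sets differ in brightness.

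The first question was how the transcripts of these wall proteins stood after a short auxin treatment. Levels were lower after IAA for 7 of the 10 genes on both arrays, higher for *LRX2* and AT1G26250, and overlapping between the groups for AT1G26240. Of all probe sets, 29.0% lay lower in this way without overlap and 24.5% higher. The median log2 change of the 10 genes was -0.79, beside -0.02 over all probe sets, and single genes ranged from -1.36 to 1.05. By the rule of the study's methods (limma adjusted p below 0.10 and log odds B above 0), 6 of the 10 were lower and 0 were higher, where 0.374% of all probe sets passed downward and 1.48% upward. Nothing is read from these counts, because the same values chose the genes. In whole seedlings, fewer root hair cells and less RNA per cell cannot be told apart.

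**Figure D1:**
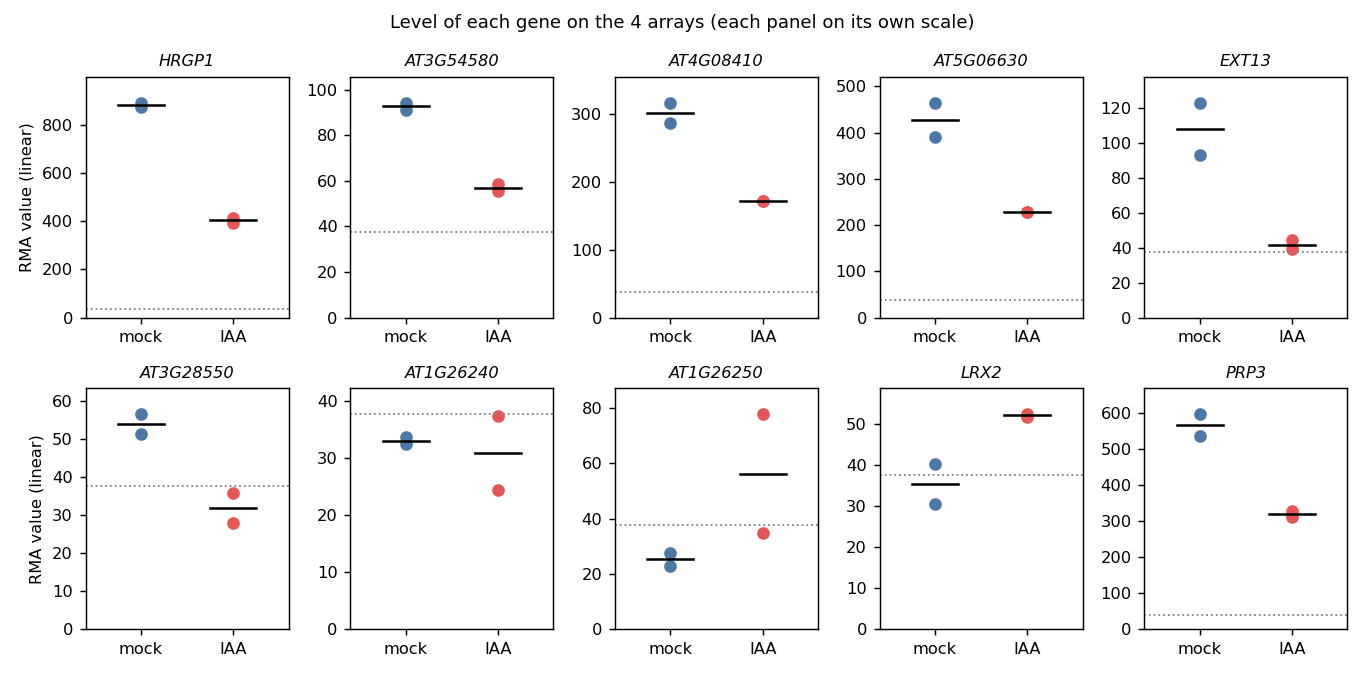
RMA value (linear scale, each panel with its own axis from 0) of each of the 10 genes on the 2 mock arrays (blue) and the 2 IAA arrays (red); black bars are group means and the dotted line is the near-background limit of 37.6. Both IAA arrays sit below both mock arrays in 7 panels and above them in those of *LRX2* and AT1G26250.

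*EXT13* (AT5G35190), an extensin named through the study's lists of auxin-regulated transcripts on these arrays, had the largest decrease among the 10. It read 93.0 and 123 on the mock arrays and 39.1 and 44.6 on the IAA arrays. The IAA arrays thus lay close to each other and just above the near-background limit, while the mock arrays were farther apart. The group means were 108 ± 21.2 and 41.8 ± 3.89 (SD, n = 2 in each group), a 2.56-fold decrease (log2 change -1.36), and the 4 differences between an IAA and a mock array ran from -1.65 to -1.06. Only 0.022% of all probe sets had a more negative change. As its level after IAA is close to the limit, the size of this change shrank to -0.70 when 64 was added to each value before the log.

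*HRGP1* (AT3G54590) is a hydroxyproline-rich glycoprotein of the extensin type. Its values were 891 and 874 in mock and 413 and 393 after IAA. The groups were separated by a gap many times the distance between replicates. The means were 883 ± 11.6 and 403 ± 14.1 (SD, n = 2), a 2.19-fold decrease, and every one of the 4 array-to-array differences lay between -1.18 and -1.08 on the log2 scale. All readings were far above background, and adding 64 to each value moved the log2 change only from -1.13 to -1.02.

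AT3G54580 is the immediate neighbor of *HRGP1* on chromosome 3, with 0 genes between them in the RefSeq order (assembly TAIR10.1). It read 94.2 and 91.1 in mock and 55.4 and 58.6 after IAA, so the groups did not overlap. The decrease was 1.63-fold (log2 change -0.70, array-to-array differences from -0.77 to -0.64). Both genes of this pair were thus lower, and AT3G54580 is read by a probe set that is not marked for shared sequence, whereas that of *HRGP1* is.

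A further pair of neighbors lies on chromosome 5. AT5G06630 read 464 and 391 in mock and 228 and 229 after IAA, a 1.86-fold decrease (log2 change -0.90). Its IAA arrays were nearly equal, and the scatter came from the mock arrays. *EXT10* (AT5G06640), with 1 gene between them, was not among the 10 genes and is described with the other extensins below. AT4G08410, on chromosome 4, read 317 and 288 in mock and 172 and 172 after IAA, a 1.75-fold decrease (log2 change -0.81, SD 20.0 in mock and 0.318 after IAA). A different probe set, assigned by the array's annotation to both AT4G08410 and AT4G08400 (2 genes lie between these loci), stayed near background on all arrays, with 16.4 and 15.6 in mock and 12.8 and 12.5 after IAA. It was used for neither gene.

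AT3G28550, an extensin gene on chromosome 3, was dim. Its mock values were 56.4 and 51.3, and its IAA values of 35.6 and 27.9 were both near background. The groups did not overlap, and the decrease was at least 1.43-fold (log2 change as measured -0.77). With 64 added to each value that change was -0.30. It did not pass the rule.

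AT1G26240 and AT1G26250 are direct neighbors on chromosome 1 with 0 genes between them, and neither passed the rule. AT1G26240 read 33.6 and 32.4 in mock and 24.3 and 37.3 after IAA, all near background, so no fold is given. Its log2 change of -0.13 turned to 0.18 without IAA replicate 1 and to -0.44 without IAA replicate 2. The value of AT1G26250 was higher on both IAA arrays, but to unequal extents: 27.5 and 22.9 in mock, 34.6 and 77.8 after IAA. Of these 4 readings only that of IAA replicate 2 was above the near-background limit. The increase was at least 1.38-fold (log2 change as measured 1.05), a bound that rests on IAA replicate 2 alone, since without it all readings were near background and no fold could be given. The measured change was 0.46 without IAA replicate 2 and 1.63 without IAA replicate 1. The sign for AT1G26240 and the size for AT1G26250 thus turned on single IAA arrays.

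*LRX2* (AT1G62440), the leucine-rich repeat extensin, differed from most classical extensins in the sign of its change. Its mock values were 30.5 and 40.2 and its IAA values 51.8 and 52.4. Both IAA arrays were higher, and 1 of the 2 mock readings was near background. The means were 35.3 ± 6.84 in mock and 52.1 ± 0.368 after IAA (SD, n = 2), an increase of at least 1.38-fold (log2 change 0.57), without passing the rule.

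*PRP3* (AT3G62680), a proline-rich protein of the root hair wall, read 596 and 536 in mock and 328 and 311 after IAA. The arrays of each group lay close together and the groups did not overlap. The means were 566 ± 42.7 and 319.5 ± 12.5 (SD, n = 2), a 1.77-fold decrease (log2 change -0.82, array-to-array differences from -0.94 to -0.71). It was bright on all 4 arrays, and over 9 other settings its change ran from -0.90 to -0.72. It nevertheless passed the rule in only 10 of 15 other settings, and not without mock replicate 1, mock replicate 2 or IAA replicate 2.

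Sequence shared between extensin genes limits how far single genes can be told apart. In 3 of the 10 genes (*HRGP1*, AT4G08410 and AT5G06630) the probe set's suffix (_x_at) marks probes that can also bind other transcripts, and the repeats of extensins are much alike. Such probe sets are rare on the array, 126 of 22746 or 0.554%. Of these 126, 5 passed the rule downward and 2 upward, and all 5 of the former belong to the classical extensin list, as the 3 genes just named with *EXT6* and *EXT10*. The 5 are not independent readings. The other 7 of the 10 genes, among them *EXT13*, AT3G54580 and *PRP3*, have probe sets without this mark.

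The comparison was next extended to the whole extensin family, from a list of 19 loci of which 14 were measured. Here and below, a locus counts as measured only where a probe set could be named for it. As 8245 probe sets were left unnamed, and 503 that name several genes were not used, other listed loci may be on the array. Of the 6 measured loci outside the 10 genes, all had lower values on both IAA arrays, with a median log2 change of -0.56, and 2 passed the rule. Of all probe sets, 29.0% lay lower without overlap and 0.374% passed downward. Among the 6, 2 were near background on all arrays. *EXT10* read 359.7 and 353 in mock and 167 and 176 after IAA, and fell 2.08-fold (log2 change -1.05 ± 0.09 SE, limma adjusted p = 0.00592). *EXT6* (AT2G24980) read 523 and 465 in mock and 246 and 252 after IAA, and fell 1.98-fold (limma adjusted p = 0.0111). The identity of both comes from lists of auxin-regulated transcripts that the study chose on these arrays (the auxin lists below). Neither their direction, their passing nor their adjusted p is therefore independent evidence. Both also enter the median of -0.56, so nothing is read from the 2 that passed.

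Of the 4 extensin loci named independently of these arrays, 0 passed the rule on B in limma, though all lay below 0 (median -0.26). AT1G23720, named here after its values were seen, came closest. Its mock values were 510.3 and 512 and its IAA values 333 and 257, which gives -0.81 ± 0.14 on the log2 scale (SE; limma adjusted p = 0.0531, B = -0.95). It too is read by a probe set of shared sequence. AT2G43150 had a log2 change of -0.30 (limma adjusted p = 0.327). AT4G08370 and AT4G08380, with 1 gene between them on chromosome 4, were near background on all arrays. Without the probe sets marked for shared sequence, 2 classical extensins passed downward in place of 7.

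**Figure D2:**
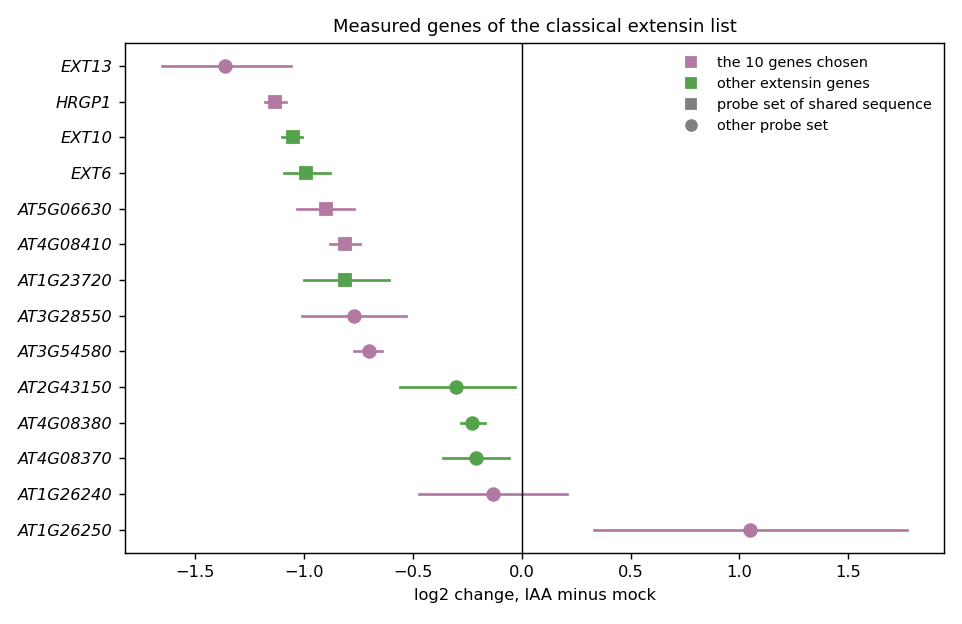
Log2 change (IAA minus mock) of the 14 measured loci of the classical extensin list; symbols are differences of group means, and lines run from the lowest to the highest of the 4 differences between an IAA and a mock array. Of the 14, 13 lie below 0, and the line of AT1G26240 crosses 0. The 6 probe sets marked for shared sequence (squares) all lie at or below -0.81.

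Leucine-rich repeat extensins other than *LRX2* lay on both sides of 0. Of 11 listed loci 10 were measured, and 0 of the 9 besides *LRX2* passed the rule in limma in either direction, with a median log2 change of -0.03 and a range from -0.52 to 0.11. AT2G15880 was farthest from 0 at -0.52 ± 0.19 (SE, limma adjusted p = 0.205), from 269 and 183 in mock and 153 and 157 after IAA. *LRX3*, another member, read 634 and 372 in mock and 561 and 493 after IAA, so its groups overlapped and its mock arrays differed more than its treatments. Of the 10 measured loci 4 were near background on all arrays. Whether *LRX2* differed from the other members of its family was not tested.

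Proline-rich extensin-like receptor kinases (PERKs) carry an extensin-like stretch outside the cell. Of 8 listed, 1 was measured, *PERK9*, which passed upward (log2 change 0.69 ± 0.10 SE, limma adjusted p = 0.034). It read 25.4 and 25.1 in mock and 43.1 and 38.1 after IAA, at least 1.08-fold against the near-background limit. The call was kept in 5 of 14 other settings, and *PERK9* was named through the auxin lists. Of 4 listed proline-rich wall protein genes, *PRP3* alone was measured, and it too was named through the auxin lists. Neither the direction nor the passing of *PERK9* and *PRP3* is thus independent evidence.

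Enzymes that modify extensins were examined as well. Of 12 listed genes for proline hydroxylation and extensin glycosylation 4 were measured, and 0 passed the rule on B in limma (median log2 change 0.01). AT5G13500 was farthest from 0: its values were 391 and 332 in mock and 518 and 511 after IAA, which did not overlap (log2 change 0.51 ± 0.11 SE, limma adjusted p = 0.084 with B = -2.05). *XEG113*, which adds arabinose to extensins, was at -0.05. Of 8 listed root class III peroxidases, a class whose members can cross-link extensins, 4 were measured. None of the 4 passed the rule in limma (log2 changes from -0.87 to -0.19). AT3G01190 was farthest from 0 with 393 and 526 in mock and 292 and 211 after IAA (limma adjusted p = 0.101).

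Genes of root hair growth outside these families were few on the named part of the array. Among root hair wall enzymes and expansins, 3 of 7 listed were measured. *XTH26*, which cuts and rejoins xyloglucan, passed downward (log2 change -0.65 ± 0.09 SE, limma adjusted p = 0.028), but its values of 35.6 and 36.2 in mock and 23.5 and 22.1 after IAA were all near background and the call was kept in 5 of 14 other settings. *EXPA7*, an expansin of root hairs, was at -0.40 (limma adjusted p = 0.0922 with B = -2.30) and *EXPA18* at -0.23. Of the genes for hair growth and signaling, *SCN1*, which confines hair outgrowth to 1 site per cell, was measured alone of 10 listed, with overlapping groups and a log2 change of 0.09. Of 6 root hair transcription factor genes AT2G14760 was measured, near background throughout at 0.05. *MYB66* (also called *WEREWOLF*), which specifies the hairless epidermal cells, was near background as well (21.9 and 22.2 in mock, 18.9 and 19.3 after IAA).

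Of 7 listed markers of other root tissues 3 were measured, and 2 of the 3 passed downward. *TIP2;3*, a tonoplast aquaporin, read 692 and 769 in mock and 352 and 316 after IAA, and fell 2.19-fold (limma adjusted p = 0.00865). It was named through the auxin lists, so neither its direction nor its passing is independent evidence. *CASP5*, a Casparian strip protein of the endodermis, read 106 and 105 in mock and 58.4 and 48.3 after IAA, and fell 1.99-fold (limma adjusted p = 0.0182). *PYK10*, an abundant root glucosidase, did not pass, with overlapping groups (2407 and 2943 in mock, 2707 and 2325 after IAA, log2 change -0.09, limma adjusted p = 0.768). The summed level of the 3 was 3205 and 3817 in mock and 3118 and 2689.8 after IAA, which did not overlap. Without *TIP2;3* the sum was 2513 and 3048 in mock and 2766 and 2373 after IAA, which overlapped. Both sums consist mostly of *PYK10* signal. The part of root tissue content in the extensin result was not tested. Shoot markers were present at high levels and 0 of 2 passed in limma: *PRK* had a log2 change of -0.20 and *RCA* of -0.01. Over all 12 lists, 5 of the 35 measured loci outside the 10 genes passed downward and 1 upward. Of the 31 named independently of the auxin lists, 2 passed downward (*XTH26* and *CASP5*). Over all probe sets, 0.374% passed downward and 1.48% upward. The lists were chosen with earlier results of these data known, so nothing is read from these counts.

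**Figure D3:**
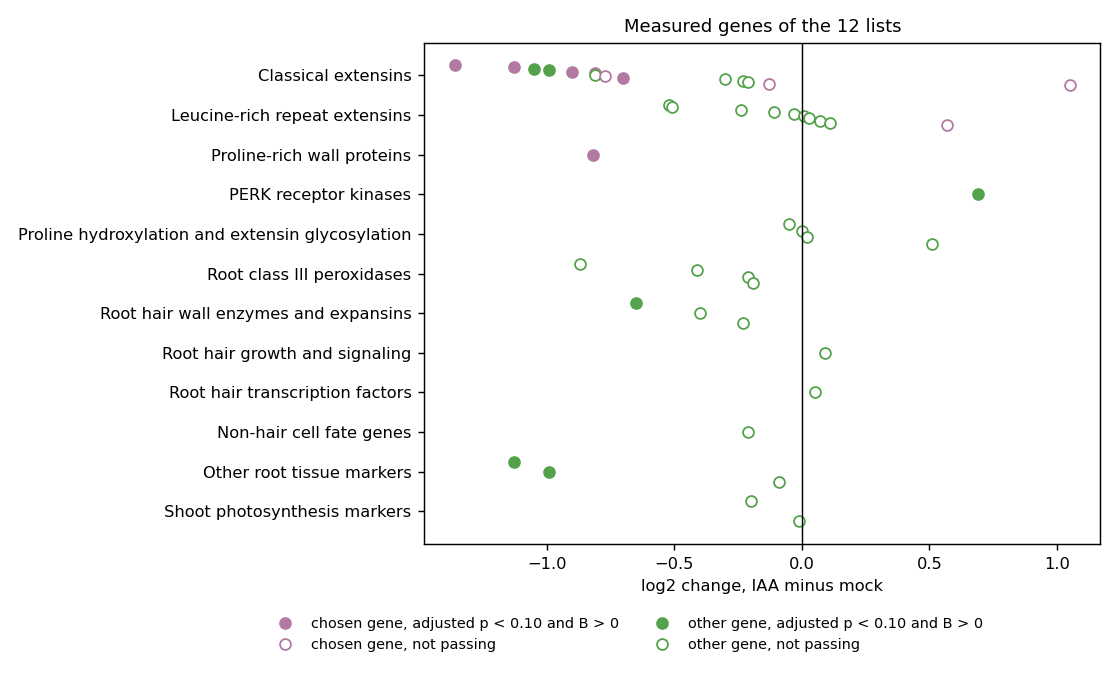
Log2 change (IAA minus mock) of every measured locus in the 12 lists, with the 10 chosen genes in purple and other loci in green; filled symbols passed limma at an adjusted p below 0.10 with B above 0. Filled symbols below 0 lie among the classical extensins, *PRP3*, *XTH26* and the root markers *TIP2;3* and *CASP5*.

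Across the arrays, the median profile of the 10 genes, each centered on its own mean log2 value, stood at 0.46 and 0.33 in mock and at -0.38 and -0.42 after IAA. Among 6355 other named probe sets of at least median brightness, the 5 closest to this profile over the 4 arrays were *BOR1* (a boron exporter, distance 0.0383), AT5G14880, *CAX1* (a vacuolar calcium exchanger), AT3G22104 and the arabinogalactan protein gene *AGP3* (0.111). *AGP3*, like extensins a hydroxyproline-rich glycoprotein of the cell surface, read 227 and 225 in mock and 129.8 and 134 after IAA. Except AT3G22104, these 5 were named through the auxin lists. The distances are a description over 4 arrays.

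The size of the change depended on the setting mainly for dim genes. Over 9 other settings the log2 change of *HRGP1* ran from -1.18 to -1.02 and that of *EXT13* from -1.56 to -0.70, while AT1G26240 ran from -0.44 to 0.18. For the remaining genes that were lower, and for both that were higher, the sign was kept in all 9. The replicate block, among the 9, cannot alter a log2 change in this design, so its agreement was fixed in advance. Which genes passed in which setting is given next as a description. The same values chose the genes, so nothing is read from these counts. Of the 6 genes passing downward, 2 did so when mock replicate 1 was left out and 3 when mock replicate 2 was, while AT1G26250 passed upward without IAA replicate 1. Of 15 other settings, *HRGP1* passed in 15, *EXT13* in 13, AT4G08410 in 12, AT5G06630 in 11, and AT3G54580 and *PRP3* in 10 each. AT3G54580 did not pass without mock replicate 1, mock replicate 2 or IAA replicate 1, AT4G08410 without either mock replicate, and AT5G06630 without mock replicate 1 or IAA replicate 1. AT3G28550 passed downward without IAA replicate 1.

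**Figure D4:**
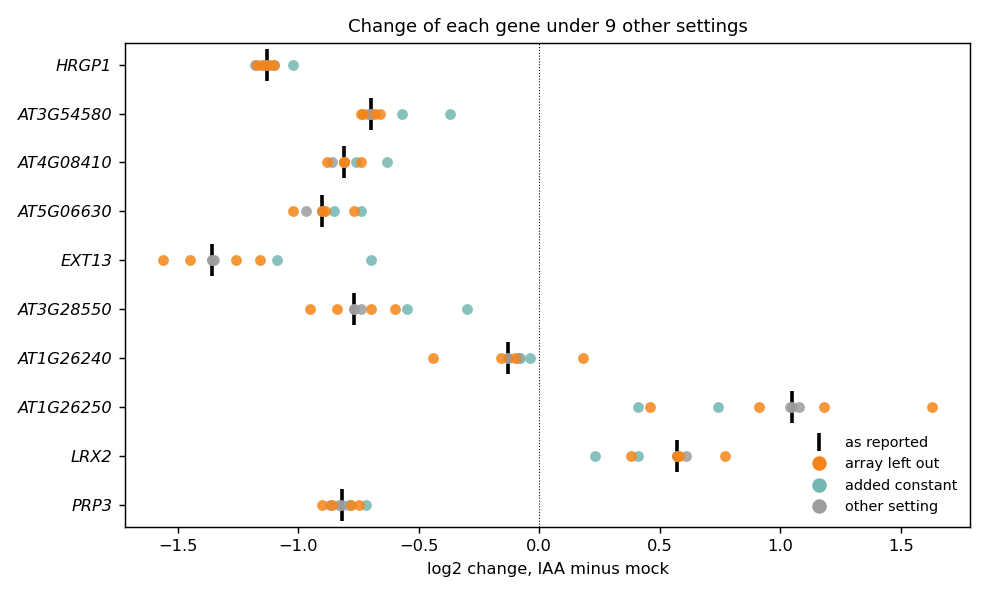
Log2 change (IAA minus mock) of each of the 10 genes as reported (black bars) and under 9 other settings: 1 array left out (orange), 16 or 64 added to each value before the log (teal), and other normalizations or a replicate block (grey). The points of *HRGP1* and *PRP3* lie close together, and those of AT1G26240 fall on both sides of 0.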

How the data were processed

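RNA from whole seedlings was hybridized to 4 arrays, 2 per group. The deposited intensity values were produced by the authors using rma in the Bioconductor affy package, which subtracts background, equalizes the arrays by quantiles and summarizes probes (version not given in the sources used here). Their linear RMA scale was inferred from the value range together with the stated methods. Which arrays were normalized together is not stated, and quantile normalization hides a shift shared by most transcripts.

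For 22746 probe sets, log2 values without a pseudocount entered limma (version 3.58.1; R version 4.3.3; lmFit, then eBayes) in a model of treatment alone, and p-values were Benjamini-Hochberg adjusted across all of these. The fold bound for near-background groups was chosen after values were seen. The pipeline was checked on simulated data. Passing means an adjusted p below 0.10 and B above 0, as in the study's methods.

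Probe sets were named through the platform annotation (13513 with 1 gene, 503 with several, not used), then the study's BR lists (335) and auxin lists (150), for identity only; 8245 were left unnamed. Of the 10 genes, 7 were named through the platform annotation, 1 (*LRX2*) through the BR lists and 2 (*EXT13* and *PRP3*) through the auxin lists. Symbols came from RefSeq (TAIR10.1). The 10 genes and the 12 lists were chosen with earlier results of these data known. Besides the 10 genes, the loci named per list were the called ones with the 2 largest changes in each direction, or the one farthest from 0 where none was called; AT1G23720, *LRX3*, *XEG113*, *EXPA7*, *EXPA18*, AT2G43150, AT4G08370, AT4G08380, *PYK10* and *RCA* were added after their values were seen. Alternatives covered added constants, a brightness filter, normalization, thresholds, trend, a replicate block and leaving out each array. An adjusted p below 0.05, or a change of at least 1.5-fold as well, left the 85 downward and 337 upward calls as they were. Dropping the rule on B can only add calls. Genes that passed as reported therefore pass in these settings too, and the counts of settings include them. Promoter and protein sequences were not analysed here. With 2 arrays per group, their number limits the precision.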

Additional observations from a re-analysis of the deposited data

How the results depend on the processing

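Over all probe sets, 85 passed downward and 337 upward. Leaving out 1 array gave 20 to 162 downward and 158 to 397 upward (without mock replicate 1, 21 and 158; without mock replicate 2, 20 and 196; without IAA replicate 2, 162 downward). With no rule on B, limma gave 513 and 880. In the gene lists, 11 loci passed downward and 1, *PERK9*, upward. An upward call in another setting is not always that of *PERK9*: without IAA replicate 1 it is that of AT1G26250. Leaving out 1 array gave 4 to 10 downward and 0 to 1 upward; the lowest counts came without mock replicate 1 (4) and without mock replicate 2 (6). Without probe sets of shared sequence 6 passed downward. For the upward calls in the lists the count was 0 with 16 or 64 added, without dim probe sets, with a common median, with eBayes trend and with either block, and 2 with no rule on B. The median log2 change of the 10 genes, -0.79, was -0.67 with 16 added and -0.50 with 64 added, as a constant shrinks the changes of dim genes.

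With the replicate number as a block, 10 probe sets passed downward and 145 upward, and in the lists 3 and 0. Same-numbered arrays did not deviate together (r = -0.194 across probe sets), so the numbers are not taken as pairs; with crossed numbers, a setting chosen after seeing the data, the counts were 86 and 299, and 9 and 0 in the lists. The causes were not tested. The planned counts of promoter motifs and protein repeats were not run.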

Other observations

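Outside the lists, 4 more genes with a named probe set carry "root hair" or "extensin" in their RefSeq names. The search was added after the data were seen, and other such genes may lie among the unnamed probe sets. *RHS13*, a root hair specific gene, read 766 and 764 in mock and 506 and 482 after IAA, a 1.55-fold decrease (limma adjusted p = 0.0292; the call was kept in 9 of 15 other settings). *SHV2*, which is needed for root hair shape, read 76.0 and 80.6 in mock and 48.3 and 51.8 after IAA, 1.57-fold lower (limma adjusted p = 0.0331, kept in 7 of 15). Both were named through the auxin lists and so are not independent of these arrays. *SHV3*, a relative of glycerophosphodiester phosphodiesterases that acts in wall assembly, lay higher on both IAA arrays (517 and 563 in mock, 713 and 669.8 after IAA) without passing (log2 change 0.36, limma adjusted p = 0.129). The receptor kinase gene *PERK15* was at 0.28 (limma adjusted p = 0.181). Both *SHV3* and *PERK15* were named through the study's BR lists. Groups that did not overlap were seen in all 4 of these genes, beside 29.0% (lower) and 24.5% (higher) of all probe sets.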
